A study of Mus musculus with 2 samples.

Results

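A set of 10 genes of the lysosomal proteolytic system were followed through the leukocytes of the mouse adrenal gland. The set was fixed by name, with earlier results of these data known. Counts of it beside all measured genes therefore describe the set and are not a test of it. It holds 8 cathepsins, Ctsa, Ctsb, Ctsc, Ctsd, Ctsh, Ctsl, Ctss and Ctsz, with the asparaginyl endopeptidase legumain (Lgmn) and the cathepsin inhibitor cystatin C (Cst3). These are 10 of the 32285 genes counted, and all 10 were detected in both libraries. Live CD45+ cells (DAPI-negative) were sorted from adrenal glands of 7-week-old C57BL/6 J mice freed of surrounding fat, with 1 droplet-based 3′ library from female and 1 from male mice, and the labels give no treatment. The number of animals behind a library was not stated, so nothing below is tested across animals. Every interval is an exact 95% interval on counted molecules (unique molecular identifiers, UMIs) or, for a share of cells, on counted cells. Each covers counting error only. Levels are UMIs per 1000000 UMIs of all cells of a class (CPM), and a 3′ count is not scaled for length, so levels are compared between cell classes and not between genes.

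Lysosomal proteases are made as inactive precursors, carried to the lysosome and activated there by acid and by one another. Ctsb, Ctsc, Ctsh, Ctsl, Ctss and Ctsz are papain-like cysteine proteases, Ctsd is an aspartic protease, Ctsa is a serine carboxypeptidase that also shields lysosomal glycosidases, and Lgmn cleaves after asparagine and processes several of the other cathepsins. In antigen-presenting cells Ctss trims the invariant chain from MHC class II molecules, and in lymphocytes with granules Ctsc activates granzymes. Macrophages are known for a large lysosomal compartment, with which they digest engulfed material.

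Many lysosomal genes carry the palindrome CACGTG, or the longer TCACGTGA that contains it, near their start, and the factors of the TFEB and TFE3 family bind such letters. RefSeq promoters (GRCm38.p6, 250 bases before to 50 after a gene's start) were found for 8 of the 10 genes, with 10 promoters between them. Ctsb and Ctsh had no entry. CACGTG was present in 4 of these 10 promoters (Ctsa, Ctsd, Ctsl and Lgmn), against 7.15% of all 32851 promoters of that length. TCACGTGA was present in 2 (Ctsa and Ctsd), against 0.974%. GAGGAAGT, searched on both strands as the letters of the myeloid factor PU.1, was present in Ctsc and Ctss, against 3.20%, and TGANTCA, the letters of AP-1, in none, against 7.81%. A match describes the letters of the window and is not evidence of binding. The 60 bases around 5 of these matches are shown so that the letters can be seen in place: a CACGTG match of each of the 4 genes that hold one, and the GAGGAAGT match of Ctsc. The match is in capitals and each sequence is read on the strand of its gene. They lie at chr2:164833713-164833772 (Ctsa), chr7:142387893-142387952 (Ctsd), chr12:102439109-102439168 (Lgmn), chr13:64370711-64370770 (Ctsl) and chr7:88277908-88277967 (Ctsc, where the capitals are the reverse complement of GAGGAAGT).
Ctsa: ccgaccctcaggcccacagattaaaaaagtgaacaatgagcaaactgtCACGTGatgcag
Ctsd: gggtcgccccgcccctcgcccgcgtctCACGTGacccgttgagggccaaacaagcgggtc
Lgmn: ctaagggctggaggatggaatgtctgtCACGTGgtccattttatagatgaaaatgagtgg
Ctsl: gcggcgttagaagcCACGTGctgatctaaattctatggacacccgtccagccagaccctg
Ctsc: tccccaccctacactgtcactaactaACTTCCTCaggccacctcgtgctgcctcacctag

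By the GENCODE vM21 annotation (GRCm38), Cst3 (ENSMUSG00000027447, chr2:148871722-148875692), Ctsa (ENSMUSG00000017760, chr2:164832873-164841032) and Ctsz (ENSMUSG00000016256, chr2:174427493-174439039) lie on chromosome 2, and Ctsc (ENSMUSG00000030560, chr7:88278085-88310888) and Ctsd (ENSMUSG00000007891, chr7:142375911-142388038) on chromosome 7. Ctss (ENSMUSG00000038642) is at chr3:95526786-95556403, Ctsh (ENSMUSG00000032359) at chr9:90054152-90076089, Lgmn (ENSMUSG00000021190) at chr12:102394084-102439813, Ctsl (ENSMUSG00000021477) at chr13:64359337-64370890 and Ctsb (ENSMUSG00000021939) at chr14:63122462-63145923. Ctsd, Ctsl and Ctss each overlap another annotated gene on the same strand (Gm49369, the pseudogene Gm49230 and the pseudogene Hmgb1-ps5), and how reads in the overlap were assigned is not known, so their counts are uncertain to that extent. The RefSeq starts behind the printed bases of Ctsa, Ctsd, Lgmn and Ctsl lie inside the GENCODE genes, downstream of the outermost starts given here, so those bases lie within the annotated genes.

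The female library kept 3694 cells and the male library 2449, with medians of 3489.5 and 3008 UMIs per cell. Cells were placed in classes by marker lists that hold none of the 10 genes: 765 female and 758 male cells passed the macrophage gate, 252 and 134 the monocyte gates, 37 and 42 that of type 1 dendritic cells, 99 and 80 that of type 2, and 2024 and 1003 the lymphocyte gates (B, T, NK and type 2 innate lymphoid cells). Of 5290 cells also classed by unsupervised clusters made without the 10 genes, 96.1% had the same class, but no cluster took the name of type 1 dendritic cells. The clusters were named by the same marker scores and thresholds as the gates, so part of this agreement was built in. It covers the classes and not the subsets of macrophages. A gate is a range of scores and not a proof of type: haemoglobin genes were among the leading genes of the NK gate, and T cell receptor gamma genes among those of the innate lymphoid gate. The libraries shared 2 barcodes. Free RNA was gauged from the complement genes C1qb and C1qc, whose summed level in B, T and NK cells was 0.69% to 0.96% of that in macrophages. In type 2 innate lymphoid cells this level was 1.23% in the female and 1.55% in the male library.

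The 10 genes together made up a larger share of the RNA of macrophages than of monocytes, and were scarce in lymphocytes. They held 1.59% (1.57 to 1.60) of female and 1.53% (1.51 to 1.54) of male macrophage UMIs. In monocytes the share was 0.760% (0.741 to 0.779) in the female and 0.749% (0.724 to 0.775) in the male library, and in lymphocytes 0.114% and 0.113%. Type 1 dendritic cells had the largest shares of the myeloid classes, 2.62% (2.55 to 2.69) and 2.27% (2.21 to 2.34), of which Cst3 alone supplied 4943 of 5136 and 4307 of 4650 UMIs. The inhibitor Cst3 is part of the sum in every class, so these shares are not levels of the proteases alone. With each cell drawn down to 1000 UMIs, the median macrophage held 16 molecules of the set in the female and 15 in the male library, the median type 1 dendritic cell 23 and 20, and the median lymphocyte 1 and 1.

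**Figure D1:**
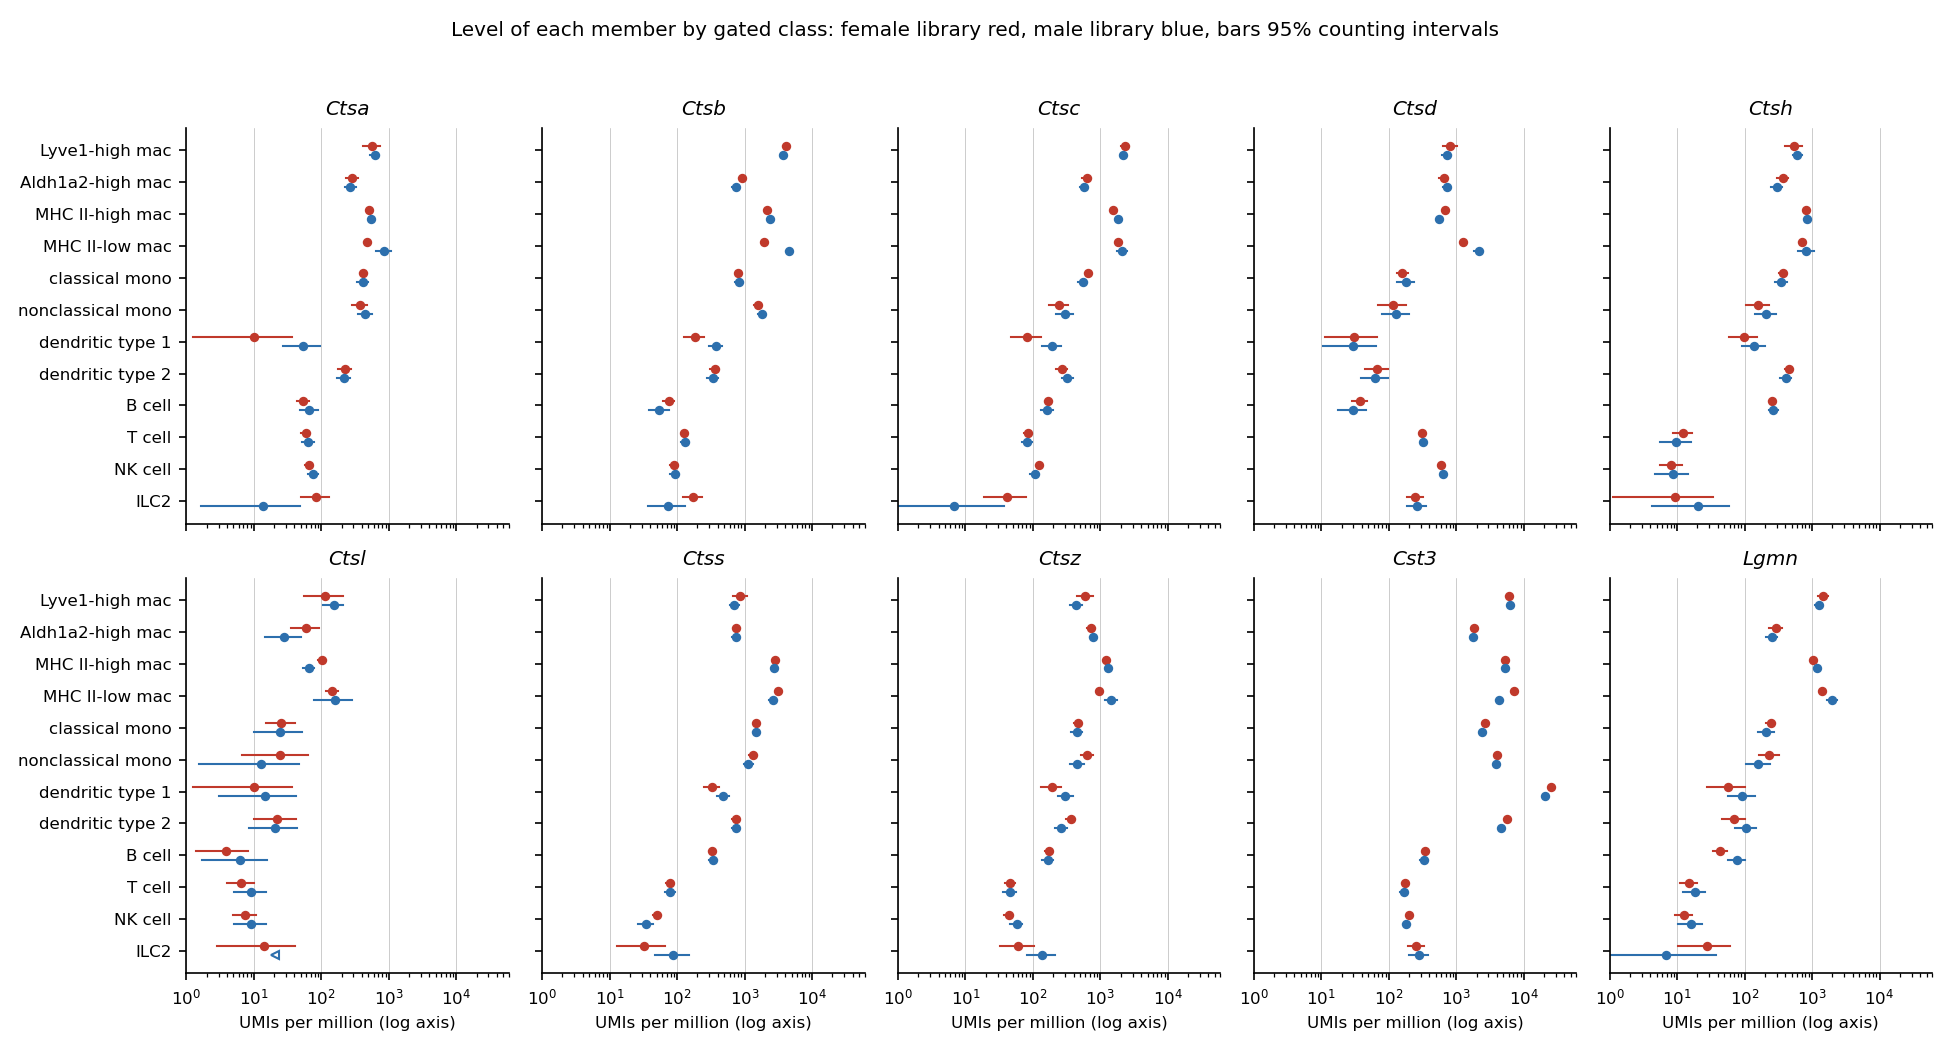
Level of each of the 10 genes by cell class, as CPM on a log axis, in the female and male libraries, with bars for 95% counting intervals and an open triangle for a count of 0 drawn at its limit of 3 counts. Cst3 peaks in type 1 dendritic cells (25191 and 21061 CPM), Ctsd stays high in NK cells (594 and 636 CPM), and the other 8 genes are lowest in lymphocytes or type 1 dendritic cells.

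**Figure D2:**
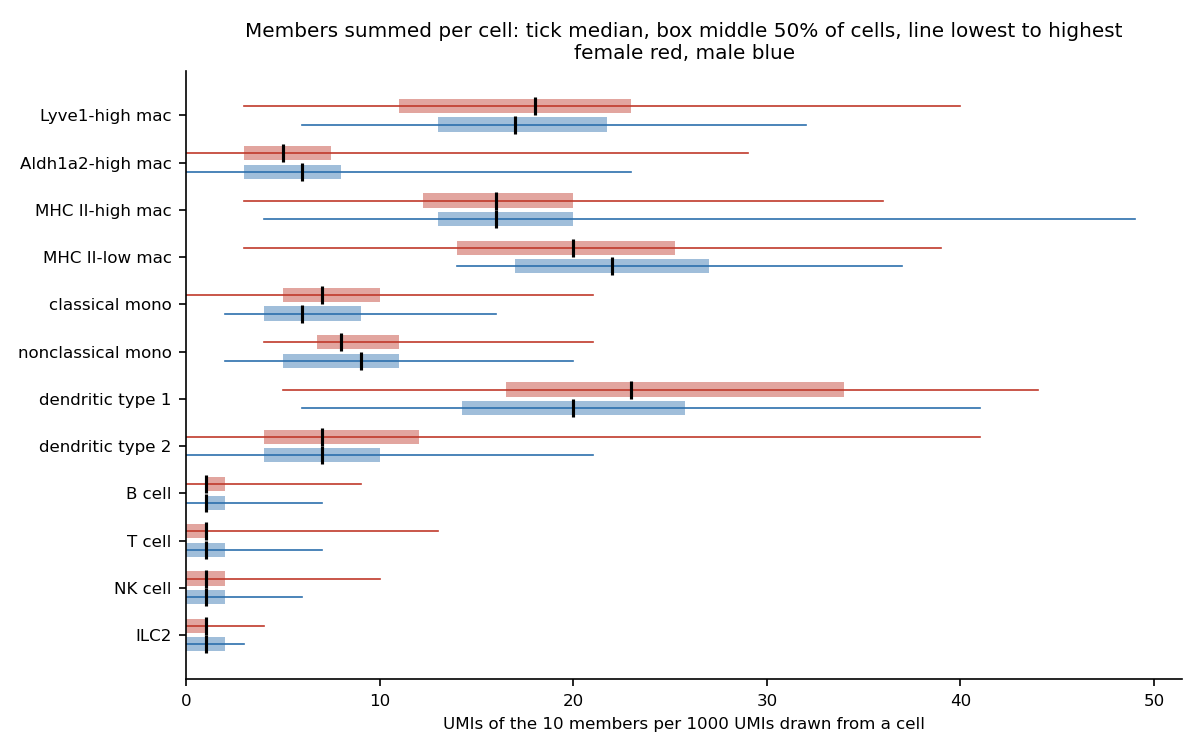
Molecules of the 10 genes, Cst3 included, per cell after each cell was drawn to 1000 UMIs, by class and library. The macrophage medians are 16 and 15, those of Aldh1a2-high cells 5 and 6, and those of lymphocytes 1 and 1.

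Macrophages, the professional phagocytes of the gland, were first compared with lymphocytes. A gene was called past a fold where its CPM ratio passed it in both libraries in the same direction, and was measured where it had at least 50 UMIs over the classes compared. At 2-fold, 9 of 10 genes were higher in macrophages and 0 lower, against 15.5% of 10760 measured genes higher and 12.9% lower. The median log2 ratio of the 10 was 3.95, and that of all measured genes -0.13. The difference was also one of how many cells held a molecule. After the draw to 1000 UMIs, Cst3 was seen in 93.3% (91.2 to 95) of female and 93.4% (91.2 to 95.1) of male macrophages and in 19.3% and 20.9% of lymphocytes. Without the draw 95.8% and 94.9% of macrophages held a Cst3 UMI. Lgmn was seen in 60% (56.3 to 63.7) and 59.4% (55.5 to 63.1) of macrophages and in 2.36% and 3.99% of lymphocytes, where C1qb, a gene lymphocytes do not make, was seen in 3.72% and 4.19%. Macrophages had median depths of 3583 and 2830 UMIs, B cells 2194 and 1744, T cells 3996 and 3895, and NK cells 4161.5 and 4838.

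Lgmn, which matures other cathepsins, stood at 1060 CPM in female and 1087 in male macrophages, and at 19.5 and 26.4 CPM in lymphocytes. The libraries lay within 1.5-fold of each other in macrophages and in the pooled lymphocytes, and macrophages and lymphocytes lay far apart. The ratios were 54.4 (46.6 to 63.9) and 41.2 (34.0 to 50.5). In NK cells Lgmn was at 1.19% and 1.47% of its macrophage level, near the level of the complement genes there, and there it cannot be told apart from free RNA. In B cells it was at 4.07% and 7.16%, above them.

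Of the cysteine proteases, Ctsb, a broad-acting enzyme, stood at 2018 and 2348 CPM in macrophages and 103 and 101 in lymphocytes (ratios 19.5 and 23.2). Ctss stood at 2648 and 2215 CPM against 111 and 103 (23.9 and 21.5). Ctsz, a carboxypeptidase, stood at 1103 and 1149 CPM against 68.4 and 72.4 (16.1 and 15.9). For these and the other genes of the set but Ctsd, both libraries placed every lymphocyte class under every macrophage subset. Ctsc, the dipeptidyl peptidase that activates granule serine proteases, stood at 1540 and 1693 CPM against 115 and 101, and Ctsh, an aminopeptidase, at 728 and 746 CPM against 55.0 and 50.5. Ctsl, an endopeptidase, was counted rarely, at 108 and 68.5 CPM against 6.57 and 8.38, and its intervals (12.4 to 22.1, and 5.65 to 12.2) are accordingly wide. Ctsa stood at 485 and 525 CPM against 61.0 and 67.3, with ratios of 7.95 (7.20 to 8.80) and 7.81 (6.86 to 8.92).

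Ctsd was the gene of the set that did not pass. It stood at 825 CPM in female and 642 in male macrophages and at 378 and 401 in lymphocytes, ratios of 2.18 (2.07 to 2.30) and 1.60 (1.496 to 1.71). The lymphocyte classes were far from alike. NK cells held 594 and 636 CPM, T cells 311 and 325, and B cells 37.4 and 29.6. After the draw, Ctsd was seen in 47.9% (44.3 to 51.6) of female and 45.4% (39.7 to 51.2) of male NK cells, and in 2.77% (1.48 to 4.69) and 2.50% (0.923 to 5.36) of B cells. Without the draw the shares were 89.7% and 90.8% of NK cells, at median depths of 4161.5 and 4838 UMIs, and 10.3% and 7.11% of B cells, at 2194 and 1744. Macrophages, at 44.1% (40.4 to 47.9) and 36.1% (32.4 to 39.9) after the draw, held no larger share than NK cells. The NK level was 72.0% and 99.1% of the macrophage level, where the complement genes in NK cells were at 0.81% and 0.79%. Outside the classes compared, neutrophils held 905 and 826 CPM of Ctsd.

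**Figure D3:**
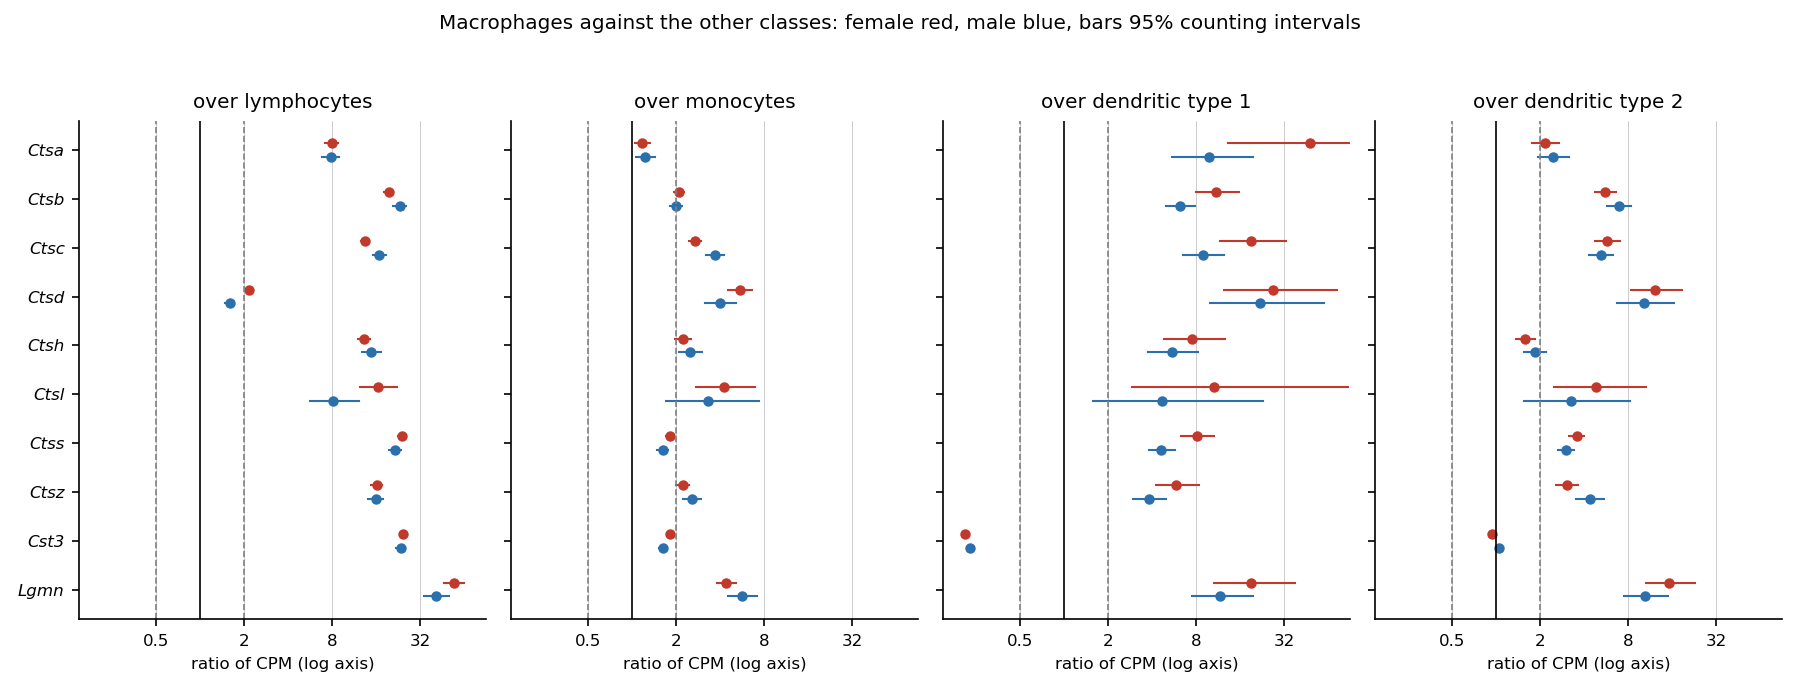
Ratios of macrophages over lymphocytes, monocytes, type 1 and type 2 dendritic cells for the 10 genes, female and male libraries, on a log axis with 95% counting intervals and dashed lines at 2-fold. Intervals that reach beyond the right edge, such as that of Ctsa over type 1 dendritic cells in the female library (13.2 to 394), are clipped there.

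B cells, which present antigen on MHC class II, stood above T and NK cells in both libraries in Ctsh, Ctss, Ctsz, Lgmn, Ctsc and Cst3 and below them in Ctsd and Ctsb. On few UMIs, Ctsl was also lower in B cells (3.81 and 6.23 CPM) than in T (6.48 and 9.14) and NK cells (7.42 and 9.21). Ctsh stood at 258 and 268 CPM in B cells, 12.0 and 9.75 in T cells and 8.24 and 8.60 in NK cells. After the draw it was seen in 22.8% (19.1 to 26.9) and 24.6% (19.3 to 30.5) of B cells and in 0.994% and 0.775% of T cells. Without the draw the shares were 48.4% and 43.5% of B cells and 4.38% and 3.29% of T cells, which were deeper at medians of 3996 and 3895 UMIs. In T cells Ctsh was at 1.65% and 1.31% of its macrophage level, and in NK cells at 1.13% and 1.15%, close to the 0.79% to 0.96% of the complement genes, against 35.4% and 35.9% in B cells. Ctss stood at 329 and 344 CPM in B cells, 77.2 and 78.0 in T cells and 50.3 and 34.4 in NK cells. Ctsz stood at 173 and 167 CPM in B cells, 45.4 and 45.1 in T cells and 44.0 and 57.1 in NK cells. Lgmn stood at 43.2 and 77.8 CPM in B cells, 15.1 and 18.3 in T cells and 12.6 and 16.0 in NK cells. Ctsl gave no UMI in the 50 male innate lymphoid cells and 13.9 CPM in the 70 female ones. The smallest classes are given as values: Ctsl stood at 819 (573 to 1133) and 924 (586 to 1386) CPM in 17 female and 7 male plasmacytoid dendritic cells, and at 435 (299 to 611) and 320 (224 to 444) in 32 and 38 endothelial cells that passed the CD45 sort.

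Against monocytes, the blood-derived cells that can mature into macrophages, 7 of the 10 genes were at least 2-fold higher in macrophages and 0 lower, against 10.1% of 8692 measured genes higher and 5.59% lower. The median log2 ratio was 1.24 for the set and 0.11 for all measured genes. Ctsd had a level of 151 and 160 CPM in monocytes and ratios of 5.46 (4.56 to 6.58) and 4.01 (3.16 to 5.17). Lgmn had a level of 241 and 192 CPM there and ratios of 4.41 (3.82 to 5.11) and 5.65 (4.55 to 7.11). Both thus separated the classes more than Ctsb, at 2.10 (1.95 to 2.26) and 2.00 (1.83 to 2.20), whose intervals span the fold that was asked and which fell short of it under 5 other settings, such as without doublet removal or with unsupervised clusters. Ctsc, Ctsh, Ctsl and Ctsz passed, with ratios from 2.22 to 4.25. The intervals of Ctsh in the female library (1.96 to 2.53) and of Ctsl in the male (1.72 to 7.39) also span the fold. Ctsa, Ctss and Cst3 did not, with ratios of 1.18 and 1.23, 1.81 and 1.62, and 1.81 and 1.62. Ctss stood at 1464 and 1363 CPM and Cst3 at 2949 and 2951 in monocytes.

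Between classical and nonclassical monocytes, 0 of the 9 genes measured (Ctsl was not) passed 2-fold in both libraries, against 4.1% of 3489 measured genes higher in classical cells and 5.02% lower. Ctsb was closest, at 812 and 831 CPM in classical and 1572 and 1788 in nonclassical cells, which is 1.94-fold (1.66 to 2.25) and 2.15-fold (1.80 to 2.57) lower in classical cells. Ctsc was 2.72-fold (1.96 to 3.88) and 1.85-fold (1.32 to 2.63) higher, and Ctsh 2.31-fold (1.54 to 3.61) and 1.71-fold (1.14 to 2.63) higher. Counting error spans 2-fold for each of these in at least one library, so a 2-fold difference cannot be settled at this depth.

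Type 1 dendritic cells, the cross-presenting dendritic cells, set Cst3 apart from the proteases. Cst3 stood at 25191 and 21061 CPM in them, against 5348 and 4786 in macrophages, and was 4.71-fold (4.56 to 4.86) and 4.40-fold (4.25 to 4.55) higher in the dendritic cells. Every other gene of the set went the other way: 9 were at least 2-fold higher in macrophages, against 15.1% of 8386 measured genes higher and 2.3% lower. Cst3 was among the leading genes of this gate by fold, although the gate did not use it. After the draw it was seen in 100% of 35 female (90 to 100) and 38 male (90.7 to 100) cells. Ctsa gave 2 female and 11 male UMIs in these cells, so its ratios of 47.6 (13.2 to 394) and 9.77 (5.44 to 19.6) are loosely bounded. So are those of Ctsl, at 10.6 (2.91 to 87.8) and 4.67 (1.57 to 22.8), of which the male interval spans 2-fold. Ctsd was 27.0-fold (12.4 to 73.6) and 21.9-fold (10.0 to 59.7) higher in macrophages, and Ctss 8.12-fold (6.35 to 10.6) and 4.62-fold (3.79 to 5.70).

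Against type 2 dendritic cells, which present chiefly to CD4 T cells, 8 genes were higher in macrophages and 0 lower, against 11% of 8511 measured genes higher and 2.73% lower. Lgmn was highest by ratio, at 15.2 (10.5 to 23.0) and 10.4 (7.46 to 15), followed by Ctsd at 12.3 (8.43 to 18.7) and 10.2 (6.67 to 16.6), and the intervals of these overlap. In type 2 cells Lgmn was at 6.56% and 9.62% of its macrophage level and Ctsd at 8.13% and 9.77%. The complement genes there were at 4.63% and 4.81%, and the part of free RNA in these levels was not tested. Cst3 stood at 5348 and 4786 CPM in macrophages and 5720 and 4560 in type 2 dendritic cells, ratios of 0.935 (0.895 to 0.977) and 1.05 (0.995 to 1.11), on opposite sides of no difference. Ctsa, at 2.17 (1.75 to 2.72) and 2.44 (1.93 to 3.14), fell short with unsupervised clusters and with CPM without mitochondrial and ribosomal protein genes. Ctsh was closest to the fold without passing, at 1.59 (1.37 to 1.86) and 1.84 (1.54 to 2.20).

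Between the dendritic types, Cst3 was 4.40-fold (4.19 to 4.63) and 4.62-fold (4.36 to 4.90) higher in type 1, and Ctsa, Ctsd and Ctsh were lower, so of 9 genes measured 1 was higher and 3 lower, against 2.2% of 2592 measured genes higher and 8.06% lower. Ctsh stood at 96.8 and 137 CPM in type 1 and 457 and 406 in type 2 cells, a 4.72-fold (2.94 to 8.02) and 2.97-fold (1.96 to 4.63) difference. Ctsa was 21.9-fold (5.90 to 184) and 4.00-fold (2.11 to 8.36) lower. Ctsd was 2.19-fold and 2.14-fold lower on few UMIs, with intervals (0.887 to 6.50, and 0.835 to 6.47) that include no difference, and did not pass under 5 other settings, such as a 5% mitochondrial ceiling or cells of at least 2000 UMIs. With a mean over cells, Ctsa and Ctsh did not pass either, and Cst3 alone did. Ctsb and Ctsz split by library, at ratios of 0.509 and 0.520 in the female and 1.11 and 1.15 in the male. The complement genes in type 1 dendritic cells were at 2.47% of the macrophage level in the female and 7.94% in the male library. In type 2 cells they were at 4.63% and 4.81%. Summed macrophage markers were at 1080 and 2171 CPM in type 1 and at 1643 and 1278 in type 2 cells. Both measures were thus lower in type 1 cells in the female library and higher in the male, as Ctsb and Ctsz were. Their part in the protease levels of either dendritic type was not tested.

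Macrophages were split into 3 kinds by lists that hold none of the 10 genes. These were Lyve1-high cells (42 female, 105 male), Aldh1a2-high cells (90 and 106), and the rest, which were divided at 10.4 UMIs of 4 MHC class II genes per 1000 UMIs into MHC class II-high (442 and 458) and MHC class II-low (144 and 17). A further 47 and 72 cells were too shallow to place. In what follows, the other macrophages are these rest alone (633 and 547 cells), without the Lyve1-high and the Aldh1a2-high cells. A cell could pass the macrophage gate through the macrophage list or either subset list. Summed macrophage markers were 6424 and 5023 CPM in Aldh1a2-high cells, 30090 and 25199 in Lyve1-high cells, 45327 and 32779 in the other macrophages and 4017 and 3455 in classical monocytes. Summed classical monocyte markers were 2068 and 2314 CPM in Aldh1a2-high and 2170 and 3211 in Lyve1-high cells, against 494 and 253 in the other macrophages and 12523 and 12896 in classical monocytes. The Aldh1a2-high cells are called by their leading genes here, since their macrophage markers are low. With these cells left out of the macrophages, a setting added after the data were seen, the counts above remained at 9 genes against lymphocytes, 7 against monocytes, and 10 and 8 against the dendritic types.

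In Aldh1a2-high cells, 9 of the 10 genes were at least 1.5-fold lower than in the other macrophages and 0 higher, against 16.1% of 8063 measured genes lower and 14% higher. The median log2 ratio was -1.38 for the set and -0.07 for all measured genes. Lgmn was 3.95-fold (3.21 to 4.93) and 4.86-fold (4.01 to 5.96) lower, Ctss 3.86-fold (3.39 to 4.40) and 3.61-fold (3.22 to 4.06), and Cst3 3.10-fold (2.86 to 3.37) and 2.89-fold (2.69 to 3.12). Ctsb was 2.27-fold and 3.38-fold lower and Ctsc 2.61-fold and 3.28-fold. Ctsa, Ctsh, Ctsl and Ctsz were between 1.59-fold and 2.85-fold lower, and Ctsl did not pass with a mean over cells. Intervals span 1.5-fold in both libraries for Ctsz (1.39 to 1.83, and 1.49 to 1.88) and Ctsl (1.19 to 3.18, and 1.30 to 4.65). That of Ctsa does in the female library (1.42 to 2.20). Ctsd alone did not pass, at 0.766 (0.661 to 0.884) in the female and 1.16 (1.02 to 1.32) in the male library. The set held 0.653% and 0.620% of the RNA of these cells, below monocytes (0.760% and 0.749%). Macrophage markers were low in these cells and classical monocyte markers raised, as given above. The latter were raised also in Lyve1-high cells, where the set held 1.73% and 1.66%. The part of either marker list in the low share was not tested.

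Lyve1-high cells, which carry the markers of tissue-resident macrophages, had 2 genes lower and 0 higher at 1.5-fold, against 9.57% of 7893 measured genes lower and 18.1% higher. Ctss stood at 861 and 704 CPM in them and was 3.40-fold (2.71 to 4.33) and 3.81-fold (3.27 to 4.46) lower than in the other macrophages. Aldh1a2-high cells stood at 759 and 742 CPM of Ctss, with counting intervals that overlap those of Lyve1-high cells in both libraries. Ctsz stood at 597 and 439 CPM and was 1.95-fold (1.48 to 2.61) and 2.97-fold (2.45 to 3.64) lower. Ctsb leaned the other way, at 4098 and 3729 CPM, with ratios of 1.97 (1.77 to 2.19) and 1.49 (1.38 to 1.59), of which the second did not reach the fold, and 1.64 and 1.60 as a mean over cells, where both did. Ctsl was 1.01 in the female and 2.29 (1.55 to 3.31) in the male library. Mitochondrial genes held 6.17% and 6.10% of the UMIs of Lyve1-high cells, against 3.41% and 3.13% of the other macrophages. Type 2 dendritic cell markers summed to 2032 and 2359 CPM, 4 of 9 genes with a UMI, against 267 and 535 CPM, and the classical monocyte markers were raised as given above (5 and 6 of 8 genes with a UMI, Chil3 and Vcan at 0 in both libraries). Their part in the Ctss and Ctsz levels was not tested.

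Between MHC class II-low and MHC class II-high macrophages, 1 gene was higher and 0 lower, against 6.81% of 7557 measured genes higher and 1.05% lower. This was Ctsd, at 1278 and 2160 CPM in the low and 685 and 556 CPM in the high cells, with ratios of 1.86 (1.71 to 2.03) and 3.89 (3.25 to 4.61). Lgmn was 1.35-fold (1.251 to 1.46) and 1.70-fold (1.42 to 2.01) higher, and reached the fold in the male library only. So did Ctsl, at 1.39 (1.08 to 1.78) and 2.44 (1.19 to 4.52). Ctsa (0.930 and 1.56) and Ctsb (0.914 and 1.87) reached it in the male library and were below 1 in the female. Ctss, the protease of MHC class II processing, stood at 3167 and 2650 CPM in the low and 2856 and 2713 CPM in the high cells, ratios of 1.11 (1.05 to 1.17) and 0.977 (0.839 to 1.13). The male values rest on 17 cells.

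**Figure D4:**
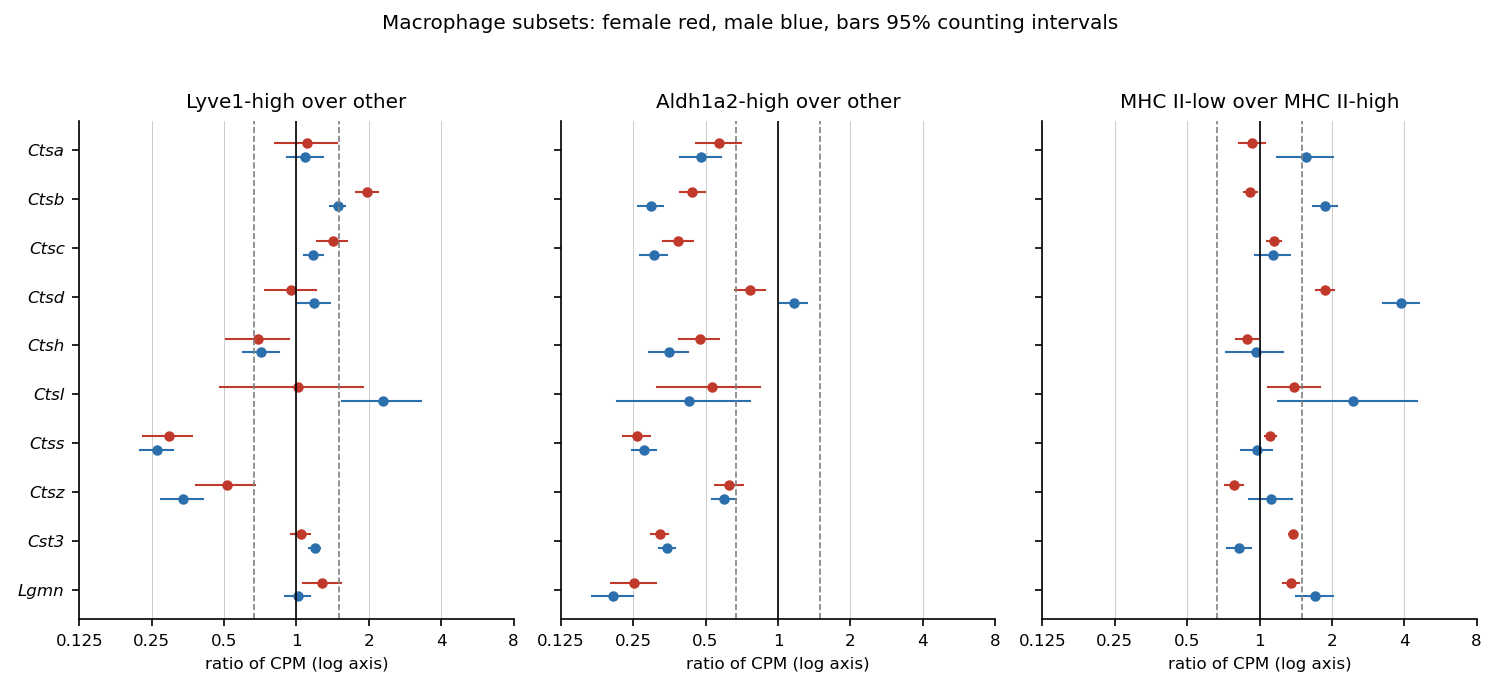
Ratios of Lyve1-high over the other macrophages, of Aldh1a2-high over the other macrophages and of MHC class II-low over MHC class II-high macrophages, by gene and library, on a log axis with 95% counting intervals and dashed lines at 1.5-fold. In the Aldh1a2-high panel 9 genes lie left of the dashed line in both libraries, and Ctsd lies right of it in the MHC class II panel.

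Female and male macrophages were then compared, a difference between 2 libraries and not shown to be one between sexes. At 1.5-fold, 1 gene was higher in the female macrophages and 0 lower, against 3% of 8263 measured genes higher and 5.32% lower. Ctsl stood at 108 CPM in the female and 68.5 in the male library (335 and 191 UMIs), a ratio of 1.58 (1.32 to 1.89). With both libraries given the same makeup of subsets it was 1.29, and without the Aldh1a2-high cells, an alternative chosen after the data were seen, 1.498, just short of the fold. Ctsd was at 1.29 (1.21 to 1.37), at 0.977 with the same makeup and at 1.23 (1.14 to 1.34) within MHC class II-high macrophages. Ctss was at 1.195 and 1.08, Cst3 at 1.12 and 1.05, and Ctsb at 0.860 and 0.835. The values at the same makeup give weight to the 17 male MHC class II-low cells. Summed macrophage markers were 40936 CPM in female and 27924 in male macrophages, and type 2 dendritic cell markers 343 and 681 CPM. The part of makeup and of these marker levels in the ratios was not tested.

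Within MHC class II-high macrophages, 1 gene was higher in female cells and 0 lower, against 3.16% of 7081 measured genes higher and 4.72% lower. This was Ctsl, at 103 and 64.8 CPM, a ratio of 1.59 (1.27 to 2.00), in cells that are part of the pool above. In Lyve1-high (115 and 153 CPM) and MHC class II-low cells (144 and 158 CPM) Ctsl was lower in the female library, without a call. In MHC class II-low macrophages, 1 gene was higher and 3 lower, against 20.4% of 2257 measured genes higher and 18.6% lower, so that many genes pass the fold on 17 male cells. Cst3 was 1.65-fold (1.47 to 1.86) higher in the female cells, and Ctsb 2.34-fold (2.07 to 2.65), Ctsa 1.78-fold and Ctsd 1.69-fold lower. In type 1 dendritic cells, where 5 genes were measured, 0 were higher and 3 lower (Ctsb, Ctsc and Ctsz), against 4.96% of 847 measured genes higher and 10% lower, in the cells whose complement RNA differed between the libraries. In type 2 dendritic cells, of 8 measured, 0 were higher and 1 lower, against 5.07% of 1816 measured genes higher and 7.05% lower. This was Lgmn, at 69.6 and 105 CPM on 28 and 35 UMIs, with an interval that includes no difference (1.502-fold, 0.888 to 2.56). In B cells, of 9 measured, 0 were higher and 1 lower, against 5.52% of 4494 measured genes higher and 5.12% lower. It was Lgmn again, at 43.2 and 77.8 CPM on 68 and 50 UMIs, 1.80-fold (1.23 to 2.64) lower in the female library. No measured gene of the set passed in Lyve1-high cells, Aldh1a2-high cells, either monocyte class, T cells or NK cells, where Ctsl, and in some of these Ctsd or Ctsh, had too few UMIs to be measured. Ctsl in Aldh1a2-high cells stood at 60.1 CPM in the female and 28.4 in the male library on 19 and 12 UMIs. In innate lymphoid cells only Ctsd and Cst3 were measured, and neither passed. Of the 8 others, Ctsb stood at 172 and 74.4 CPM there on 37 and 11 UMIs, and Ctsz at 60.4 and 135 on 13 and 20.

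**Figure D5:**
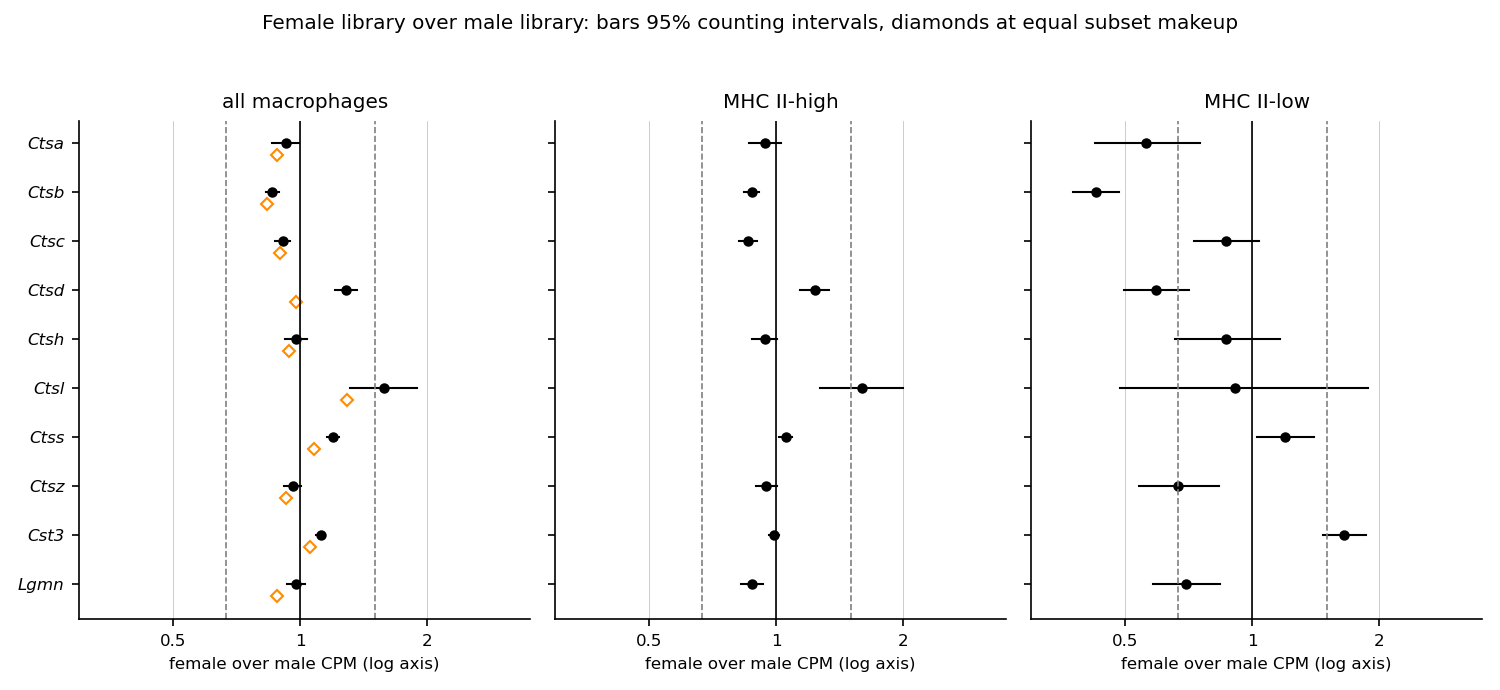
Female over male ratios of the 10 genes in all macrophages, MHC class II-high and MHC class II-low macrophages, on a log axis with 95% counting intervals, dashed lines at 1.5-fold and, in the first panel, diamonds for the ratio at an equal makeup of subsets. Ctsl lies beyond the line in the first 2 panels, and its diamond, at 1.29, inside it.

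The other genes of the lysosome were counted by list. The lists too were chosen with earlier results of these data known, so their counts beside all measured genes are descriptive. Of 94 further genes in 9 lists, 85 were measured between macrophages and lymphocytes, of which 56 were higher in macrophages and 6 lower, against 15.5% and 12.9% of all measured genes (median log2 ratio 1.80, against -0.13 for all measured genes). All 7 activators and cofactors were higher, among them Psap, the saposin precursor (3992 and 4567 CPM against 200 and 217), and Grn, the progranulin precursor (764 and 756 CPM against 26.5 and 25.1). So were 10 of 12 genes of the lysosomal membrane, such as Cd63 (731 and 872 against 14.4 and 13.8) and Lamp1 (685 and 732 against 89.9 and 91.2), 19 of 25 hydrolases, 8 of 15 subunits of the proton pump, 5 of 6 other peptidases and 4 of 6 transcription factors (Tfeb, Tfe3, Mitf and Tfec). Of 5 sorting genes 0 were higher and 1 lower. Of 4 further cathepsins, Ctsf was higher and Ctsw, a cathepsin of cytotoxic lymphocytes, lower (8.05 and 4.30 CPM in macrophages and 733 and 694 in NK cells). The inhibitors split, with Cstb and Serpinb6a higher and Cst7, Serpina3g and Serpinb6b lower.

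Between macrophages and monocytes the lists moved less, with 19 of 81 measured genes higher and 3 lower, against 10.1% and 5.59% of all measured genes, and a median log2 ratio of 0.44, against 0.11 for all measured genes. Of 25 hydrolases 9 were higher, such as Man2b1, a lysosomal alpha-mannosidase (588 and 487 CPM against 200 and 236), and 1 of 12 membrane genes, Cd63. None of the 7 activators was past the fold, and Psap stood at 4423 and 5332 CPM in monocytes. Napsa, an aspartic protease like Ctsd, was lower in macrophages (99.5 and 53.8 CPM, against 455 and 533). In Aldh1a2-high cells, 24 of 79 measured genes were lower and 8 higher, against 16.1% and 14% of all measured genes, with a median log2 ratio of -0.32, against -0.07. Man2b1 stood at 190 and 116 CPM and Cd63 at 123 and 83.0, whereas Prcp, a carboxypeptidase, was at 553 and 621 CPM against 137 and 161 in the other macrophages. In Lyve1-high cells, 13 of 79 measured genes were higher and 15 lower, against 18.1% and 9.57% of all measured genes, with a median log2 ratio of 0.11, against 0.15 for all measured genes.

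Across 28 points (14 classes in each of 2 libraries, sharing libraries, depth and gates), the 10 genes kept company with one another to different degrees. The highest Pearson r of log2(CPM + 10) within the set was that of Ctss with Ctsz (0.94), followed by Ctsb with Lgmn (0.93) and Ctsh with Ctss (0.93). Ctsd had the lowest, with Cst3 (-0.12) and Ctsh (0.04). Among 8301 other genes, the pattern most like that of Lgmn was that of Apoe (0.957), of Ctsb that of Csf1r (0.939), of Ctsl that of Sash1 (0.948) and of Cst3 that of Pak1 (0.943). Ctss was most like Pld4 (0.934), Ctsh like Unc93b1 (0.932), Ctsa like Clec4a3 (0.914), Ctsz like Cd68 (0.908), Ctsc like Clta (0.894) and Ctsd like Arrb2 (0.836). Apoe and Csf1r are markers the macrophage gate used.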

How the data were processed

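Adrenal CD45+ cells of female and male mice were measured by 10x Genomics 3′ single-cell RNA-seq. Alignment and UMI counting were done by the authors with Cell Ranger 4.0.0, and DropletUtils 1.4.3 served to remove noise barcodes, per the labels. The submitters' processing notes name mm10. The deposited values are raw UMI counts per gene and barcode. The deposited tables held 3963 female and 2685 male barcodes (16218309 and 9512670 UMIs), the lowest at 500 UMIs.

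All values here were computed from these counts in Python 3.11.15 with scanpy 1.11.5, scipy 1.17.1 and numpy 2.4.6. Barcodes with under 200 genes or over 15% mitochondrial UMIs were removed, since the ceiling of 1.2% in the study's methods kept 333 female and 366 male barcodes, far fewer cells than the methods say were left. The scale of that ceiling is unclear. Doublets were removed by Scrublet score at 0.8% per 1000 barcodes (123 female and 53 male). Each cell took the class whose marker list scored highest (for macrophages, the highest of the macrophage and 2 subset lists), if the score was over 0.25 and led by 0.1. These thresholds were set after the data were seen. The 10 genes and the lists were chosen with earlier results of these data known.

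UMIs were summed per class and library. CPM carry exact Poisson intervals, ratios exact conditional binomial intervals and shares Clopper-Pearson intervals, all at 95%. A count of 0 was set to a floor of 3 counts in ratios. With 1 library per sex no p-value was computed. Differences were called at 2-fold between classes and 1.5-fold between subsets and between sexes, in both libraries where 2 were compared. The code was tested on simulated data. Named genes were the 10 genes, up to 3 genes of each list, chosen by CPM, and the genes with the most similar pattern, with those that a count singled out named after their values were seen. Promoters came from RefSeq. Alternatives were a 5% ceiling, no doublet removal, clusters, a stricter margin, other totals, a mean over cells, deeper cells and other folds, and one was added after the data were seen.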

Additional observations from a re-analysis of the deposited data

Results flagged for a closer look

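For 3 ratios within macrophages, the whole counting interval lay above 1 in one library and below 1 in the other. The difference between libraries was not tested, since there is 1 library per sex. Ctsd in Aldh1a2-high over other macrophages was 0.77 in the female and 1.16 in the male library. Ctsb in MHC class II-low over MHC class II-high macrophages was 0.91 in the female and 1.87 in the male library, and Cst3 in the same comparison 1.37 and 0.82. The last 2 rest on 17 male MHC class II-low cells, against 144 female ones.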

How the results depend on the processing

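Of 80 counts of genes recomputed under other settings, 70 stayed within 1.5 times and 54 were equal. Of 1380 single ratios, 1183 stayed within their counting interval, and 0 called ratios changed direction. For classical against nonclassical monocytes (0 genes), 1 gene passed with unsupervised clusters (Ctsb), 2 with a stricter gate margin and 2 with a mean over cells (Ctsb and Ctsh both times). Between the dendritic types (4 genes), 1 passed with a mean over cells (Cst3). Between female and male macrophages (1 gene), 0 passed with a mean over cells, 0 without Aldh1a2-high cells and 0 at a fold of 2, while 2 passed at a fold below 1.5 (Ctsd and Ctsl). For Aldh1a2-high cells (9 genes), 6 passed at a fold of 2 (Ctsa, Ctsl and Ctsz lost) and 8 with a mean over cells (Ctsl lost). For Lyve1-high cells (2 genes), 1 passed at a fold of 2 (Ctss), 3 with a mean over cells (Ctsb added, as higher) and 3 with clusters (Ctsh added, as lower), and for MHC class II-low cells (1 gene), 0 passed at a fold of 2. Clusters gave no value for type 1 dendritic cells. The cause was not tested. No paired analysis was possible because there is 1 library per sex and no result comes from a test. Few UMIs limit Ctsl outside the pooled macrophages, and few cells limit the male MHC class II-low values (17 cells).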
